A study of Mus musculus with 6 samples.

Results

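The genes described are 10 members of the activin and TGF-beta signalling pathway, Inhba, Fst, Acvr1b, Acvr2a, Tgfb1, Tgfbr1, Tgfbr2, Smad3, Smad6 and Smad7, taken by symbol from the 54532 genes of a count table. The table covers cultured mouse peritoneal macrophages, phagocytes of the abdominal cavity, in 3 libraries labelled as Rfx1 overexpression and 3 labelled as negative control. Rfx1 encodes a DNA-binding regulator of transcription, 1 of the RFX family. Both groups share the same serum-containing medium, and the labels give no strain, age or vector. They also do not tie each library to its own animal or culture, so the errors and p-values given cover library-to-library spread, which may be technical. The members were chosen by their pathway together with their measured read counts in these 6 libraries, with results of the contrast known. Their differences between the groups, and any calls of members, are therefore given as a description, without p-values.

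Activins and TGF-betas are secreted dimers that bring together a type II receptor kinase and a type I receptor kinase at the cell surface. The type I receptor then phosphorylates SMAD2 and SMAD3, which join SMAD4 and act on transcription in the nucleus, while SMAD6 and SMAD7 inhibit the pathway. The subunit encoded by Inhba forms activin A, follistatin (encoded by Fst) binds activin outside the cell and blocks it, and TGF-beta is stored in a latent complex that has to be opened. Macrophages are a known source of activin A and of TGF-beta 1.

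In each sequence below, the 250 bases before the RefSeq transcription start are printed, with capitals marking matches to any motif searched. Inhba is shown as the member with the widest difference between the groups and Tgfb1 as the other ligand gene, whose groups overlapped. The Inhba sequence is chr13:16011601-16011850 and the Tgfb1 sequence chr7:25686752-25687001, both on the + strand of GRCm38.p6, which is the mm10 assembly.
Inhba: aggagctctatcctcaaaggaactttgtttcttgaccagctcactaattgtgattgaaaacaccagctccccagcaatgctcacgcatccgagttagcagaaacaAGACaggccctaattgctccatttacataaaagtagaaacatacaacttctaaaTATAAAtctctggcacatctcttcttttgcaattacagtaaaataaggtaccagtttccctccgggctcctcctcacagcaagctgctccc
Tgfb1: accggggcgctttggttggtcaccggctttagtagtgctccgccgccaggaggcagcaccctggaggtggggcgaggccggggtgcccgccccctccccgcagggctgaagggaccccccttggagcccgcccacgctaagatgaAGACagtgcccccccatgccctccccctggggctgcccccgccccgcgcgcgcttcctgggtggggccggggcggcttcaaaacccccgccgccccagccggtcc

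The Inhba window held 43.2% G and C, against 75.2% for Tgfb1 and a median of 52.0% over the windows of 27025 genes. Windows were searched for 8 members, and at the first listed start of each gene the other 6 lay between 58.4% for Tgfbr2 and 82.0% for Acvr2a. Motifs searched on both strands were the SMAD box GTCT, the paired SMAD box GTCTNGAC, the AP-1 site TGANTCA, the cAMP response element TGACGTCA, the core of the kB site, the RFX half-site GTTGCC and the TATA core TATAAA. A match to the paired SMAD box contains a match to the SMAD box. The SMAD box occurred in 83.0% of all windows, the TATA core in 13.0%, the RFX half-site in 10.5%, the AP-1 site in 6.87% and the cAMP response element in 1.62%. The paired SMAD box occurred in 406 and the kB core in 1082 of the 27025 windows. Inhba had a SMAD box match at positions -145 to -142, counted back from the start, and a TATA core at -91 to -86. Tgfb1 had only a SMAD box match, at -105 to -102. Of the other motifs, none had a match in the windows of these 8 members, which says only that those letters are not in these windows.

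Library totals ran from 16461277 to 18795575 counts, and 13454 genes passed the filter on low counts. Levels are CPM, read counts scaled to library size with TMM factors, given with the SD over n = 3 libraries per group. Rfx1 itself had 40.8, 36.4 and 23.2 CPM in overexpression libraries 1, 2 and 3 and 57.6, 10.97 and 14.8 CPM in controls 1, 2 and 3. The groups overlapped (log2 difference 0.27 ± 0.58 SE, edgeR adjusted p = 0.80), the library labelled control 1 held the most, and every direction below rests on the labels. Without control 1 the log2 difference in Rfx1 was 1.37 (edgeR adjusted p = 0.024). Lyz2, the lysozyme gene commonly used as a macrophage marker, split the overexpression group: it had 44.7 and 40.8 CPM in overexpression 1 and 2 and 29280 CPM in overexpression 3, against 15670, 38700 and 28350 CPM in the controls. The labels name no difference between the 3 overexpression libraries. Other macrophage markers were present in every library, among them Cd68 at 1912 to 2714 CPM with overexpression and 1893 to 2640 CPM in controls, and Csf1r at 453 to 652 CPM with overexpression and 235 to 715 CPM in controls. Of 10 macrophage markers, 3 passed as higher (Adgre1, Itgam and Cd14) and none as lower, beside 6.90% of all tested genes called higher and 5.97% lower. Without Lyz2 the markers summed to 7530 to 11800 CPM with overexpression and 5393 to 6475 CPM in controls. Cd14 held much of that gap, at 1387 to 4518 CPM with overexpression and 177 to 263 CPM in controls. Mertk and Tyrobp averaged lower with overexpression and did not pass. Results are therefore also given for overexpression 1 and 2 without 3, and for overexpression 3 alone against the controls, an alternative chosen after the values were seen in which the spread comes from the controls.

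**Figure D1:**
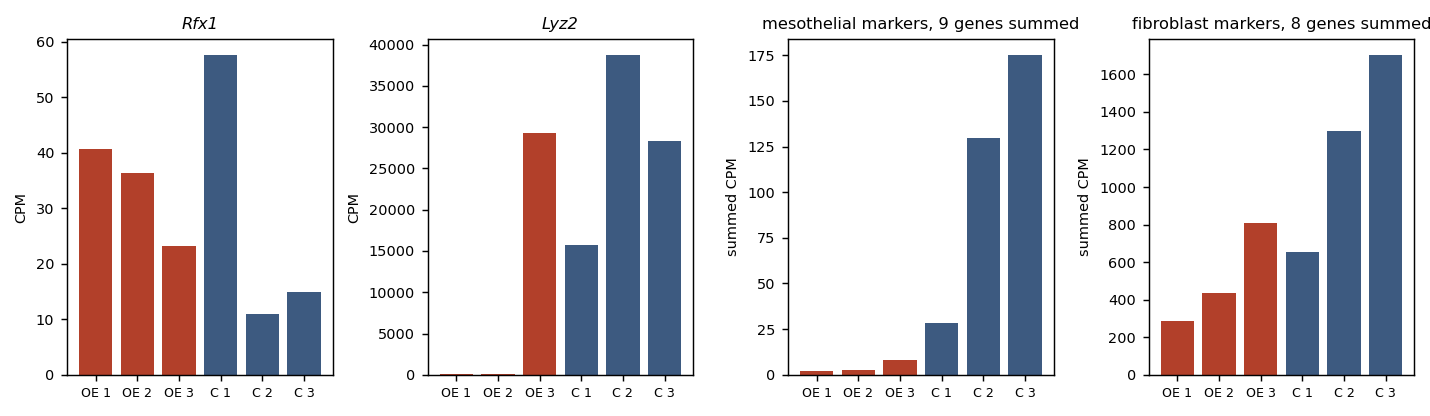
Bars show Rfx1 and Lyz2 in CPM and the summed CPM of 9 mesothelial and 8 fibroblast marker genes in each library, with overexpression (OE) 1 to 3 left of controls (C) 1 to 3. Rfx1 is highest in control 1, Lyz2 is near 0 in overexpression 1 and 2 only, and the mesothelial sum is 2.19 to 8.32 in overexpression and 28.2 to 174.9 in controls.

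Markers of other peritoneal cells also moved between the libraries. The 9 mesothelial markers summed to 2.19, 2.83 and 8.32 CPM in the overexpression libraries and 28.2, 129.5 and 174.9 CPM in the controls, with Upk1b at 0 counts in all 3 overexpression libraries. Of the 7 that could be tested, 5 passed as lower and none as higher, beside 5.97% of all tested genes called lower. The 8 fibroblast markers summed to 284.6, 436 and 808 CPM with overexpression and 656, 1298 and 1701 CPM in controls. Of 7 tested, 2 passed as lower (Pdgfra and Lum) and none as higher, beside 5.97% of all tested genes called lower. Dcn, on the same list, averaged 158 CPM with overexpression and 164 CPM in controls. Dpt had 0 counts with overexpression but only 2, 0 and 5 counts in controls, and was not tested. The 3 large peritoneal macrophage markers summed to 9.31 to 10.7 CPM with overexpression and 18.3 to 37.9 CPM in controls. Of these, Gata6 was lower (2.26 ± 1.81 CPM with overexpression and 23.5 ± 11.7 CPM in controls), while Icam2 averaged 7.06 CPM with overexpression and 4.84 CPM in controls and did not pass. Dendritic cell markers summed to 14.3 to 21.1 CPM with overexpression and 3.30 to 5.01 CPM in controls. Of these, Clec9a passed as higher, at 14.9 CPM on average with overexpression and 1.69 CPM in controls. Zbtb46, also on that list, averaged 1.60 CPM with overexpression and 2.04 CPM in controls and did not pass. The neutrophil gene Ly6g was at 0 in all 6 libraries. Summed B cell markers ran from 13.6 to 20.0 CPM with overexpression and 18.6 to 39.6 CPM in controls, T and NK cell markers from 3.25 to 9.31 and 2.89 to 21.5 CPM, and mast cell markers from 6.06 to 9.37 and 5.10 to 14.4 CPM. Neutrophil markers summed to 27.5 to 35.1 CPM with overexpression and 28.0 to 61.1 CPM in controls. Nearly all of that sum was Csf3r, at 27.0 to 34.5 CPM with overexpression and 27.7 to 60.55 CPM in controls. Mpo, Elane and Retnlg had at most 10 counts in any library. Endothelial markers summed to 25.0 to 43.3 CPM with overexpression and 39.2 to 58.2 CPM in controls. In such bulk libraries, fewer cells of a type and less RNA per cell cannot be told apart.

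Inhba, the ligand gene of activin A (ENSMUSG00000041324, chromosome 13, positions 16011851 to 16031621 of mm10, + strand), showed the widest difference among the members. It had 799, 1433 and 604 CPM in overexpression libraries 1, 2 and 3 and 4.30, 3.46 and 3.44 CPM in controls 1, 2 and 3. All 3 overexpression libraries lay far above every control. It averaged 945 ± 434 CPM with overexpression and 3.73 ± 0.491 CPM in controls, which is a log2 difference of 7.98 ± 0.44 (SE). Overexpression 1 and 2 alone gave a log2 difference of 8.22 and overexpression 3 alone 7.34.

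Tgfb1, which encodes TGF-beta 1 (chromosome 7, positions 25687002 to 25705077, + strand), had 243.5, 151 and 209.9 CPM with overexpression and 186, 125 and 149 CPM in controls. Control 1 lay above overexpression 2, so the groups overlapped. It averaged 201.5 ± 46.7 CPM with overexpression and 153.5 ± 30.8 CPM in controls, with a log2 difference of 0.39 ± 0.25 (SE).

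Fst, the activin antagonist gene (chromosome 13, positions 114452290 to 114458951, - strand), was low in every library. It had 4.11, 3.97 and 7.32 CPM in the overexpression libraries, from 60, 70 and 124 counts, and 0.425, 0.852 and 0.873 CPM in the controls, from 9, 16 and 16 counts. The groups did not overlap, and overexpression 3 held the most. The averages were 5.13 ± 1.90 CPM with overexpression and 0.717 ± 0.253 CPM in controls, for a log2 difference of 2.84 ± 0.47 (SE), with 2.49 for overexpression 1 and 2 and 3.36 for overexpression 3 alone. An antisense gene, Gm47040, shares 115 exon bases with Fst and had 2 counts in all 6 libraries together.

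**Figure D2:**
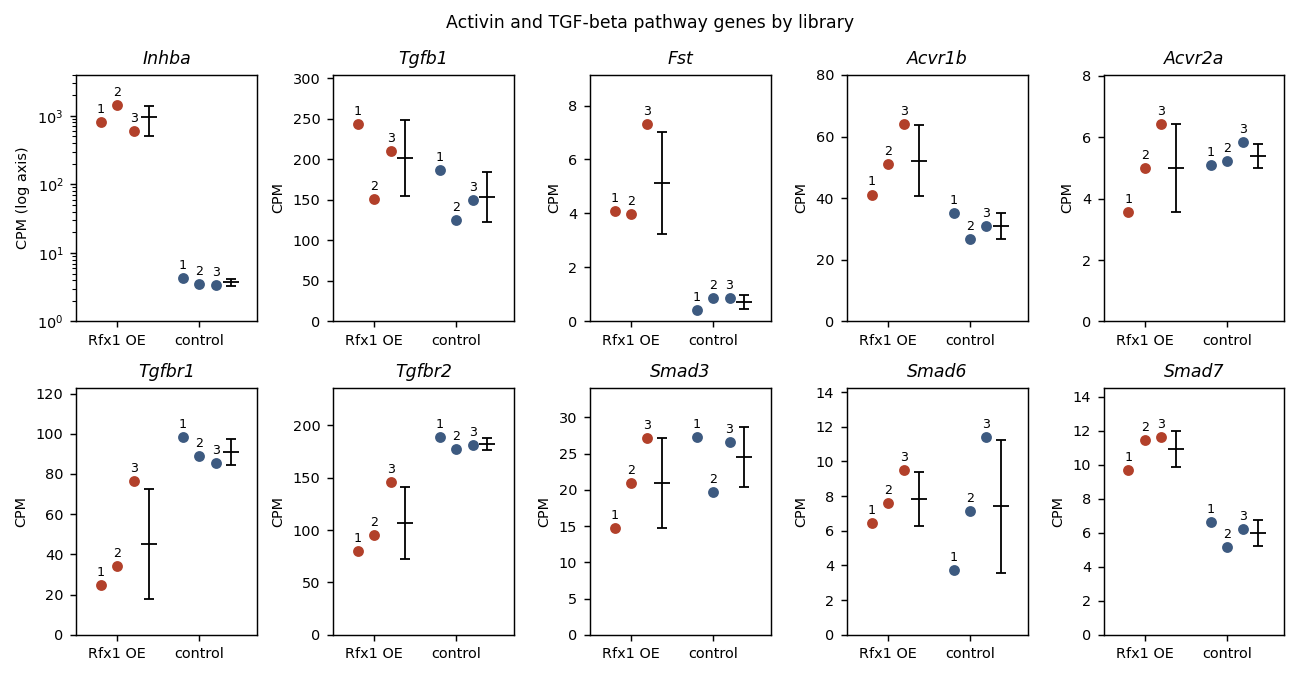
Each panel plots 1 gene in CPM on the y axis (a log axis for Inhba, linear from 0 for the others), with the 3 Rfx1 overexpression (OE) libraries left of the 3 controls, points numbered by library and a bar for the mean with its SD. The groups do not overlap for Inhba, Fst, Acvr1b and Smad7, which are higher with overexpression, nor for Tgfbr1 and Tgfbr2, which are lower. Over all tested genes, 33.4% had groups that did not overlap.

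The TGF-beta receptor genes had groups that did not overlap, as did 33.4% of all tested genes. Neither receptor gene was called in the fit across all genes. Tgfbr1, the type I receptor for TGF-beta (chromosome 4, positions 47353222 to 47414931, + strand), had 24.9, 34.0 and 76.4 CPM in overexpression libraries 1, 2 and 3, against 98.3, 88.9 and 85.5 CPM in the controls. Tgfbr2, the type II receptor (chromosome 9, positions 116084293 to 116175360, - strand), had 79.7, 95.7 and 145.6 CPM with overexpression, against 188.6, 177 and 181 CPM in controls. In both genes all 3 overexpression libraries lay below all 3 controls, and overexpression 3 lay closest to them, as it did to the control mean in 51.6% of all tested genes. Tgfbr1 averaged 45.1 ± 27.5 CPM with overexpression and 90.9 ± 6.61 CPM in controls (log2 difference -1.01 ± 0.37 SE). Tgfbr2 averaged 107 ± 34.4 CPM with overexpression and 182 ± 5.88 CPM in controls (log2 difference -0.77 ± 0.25 SE). For Tgfbr1 the log2 difference was -1.63 with overexpression 1 and 2 and -0.24 with overexpression 3 alone, and for Tgfbr2 it was -1.06 and -0.32. Both receptors, the summed fibroblast markers and the summed mesothelial markers were lowest in overexpression 1 and highest in overexpression 3 among the overexpression libraries, and Lyz2 was also highest in overexpression 3. The controls had a different order. Both receptors were highest in control 1, where the summed fibroblast and mesothelial markers were lowest among the controls. The part of these markers in the result was not tested.

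Among the activin receptors, Acvr1b, the type I receptor ALK4 (chromosome 15, positions 101174067 to 101213684, + strand), had 41.2, 51.2 and 64.1 CPM with overexpression and 35.1, 26.8 and 30.9 CPM in controls. The groups did not overlap, with averages of 52.2 ± 11.5 CPM with overexpression and 30.95 ± 4.15 CPM in controls and a log2 difference of 0.75 ± 0.23 (SE). Acvr2a, a type II receptor that binds activin (chromosome 2, positions 48814109 to 48903269, + strand), had 3.56, 4.99 and 6.43 CPM with overexpression and 5.10, 5.22 and 5.84 CPM in controls, so the groups overlapped. Its log2 difference was -0.11 ± 0.32 (SE), and it turned to 0.10 without overexpression 1. The opposite-strand gene Orc4 shares 446 exon bases with Acvr2a, and since the strand setting of the counting is not given, reads from that stretch could belong to either gene.

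Of the 3 SMAD members, only Smad7 had groups that did not overlap, where 33.4% of all tested genes had such groups. Smad3 (chromosome 9, positions 63646767 to 63757994, - strand) had 14.7, 20.9 and 27.1 CPM with overexpression and 27.3, 19.7 and 26.6 CPM in controls, overlapping, with a log2 difference of -0.23 ± 0.27 (SE). Smad7, which blocks type I receptors and is itself induced by the pathway (chromosome 18, positions 75367529 to 75395935, + strand), had 9.72, 11.4 and 11.6 CPM with overexpression and 6.61, 5.16 and 6.22 CPM in controls. Its groups did not overlap, with averages of 10.9 ± 1.06 CPM with overexpression and 5.998 ± 0.748 CPM in controls and a log2 difference of 0.87 ± 0.26 (SE). Smad6, an inhibitor that acts mainly on BMP signalling (chromosome 9, positions 63953076 to 64022059, - strand), had 6.43, 7.59 and 9.50 CPM with overexpression and 3.73, 7.13 and 11.4 CPM in controls. The Smad6 controls enclosed the overexpression libraries, and its log2 difference of 0.08 ± 0.40 (SE) turned to -0.24 without control 1.

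All 10 members had enough counts to be tested in the fit across all genes. It called 2 of them, Inhba and Fst, both as higher, where 12.9% of all tested genes were called, 6.90% as higher and 5.97% as lower. The groups did not overlap in 6 of the 10, 4 higher and 2 lower, where they did not overlap in 33.4% of all tested genes, 16.3% higher and 17.1% lower. The median log2 difference was 0.24 over the members and -0.01 over all tested genes. Since the members were chosen with this contrast known, nothing is read from these shares or from member calls under any setting. Without overexpression 3, a fit that called 24.7% of genes, 12.8% as lower, Tgfbr1 and Tgfbr2 were also called, as lower. The same 2 were added without a filter on low counts (12.3% called, 6.15% lower), together with Acvr1b as higher, and without control 1 and overexpression 3 (28.8% called, 14.8% lower), together with Smad7 as higher. DESeq2 called 4 members higher and 2 lower, where it called 10.1% of genes higher and 8.97% lower, 19.1% in all. Acvr1b was added without overexpression 1 (8.65% of genes called). Inhba and Fst were the 2 members called with overexpression 3 alone, where 2.37% of genes were called, and with the replicate number as a block, where 14.1% were.

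**Figure D3:**
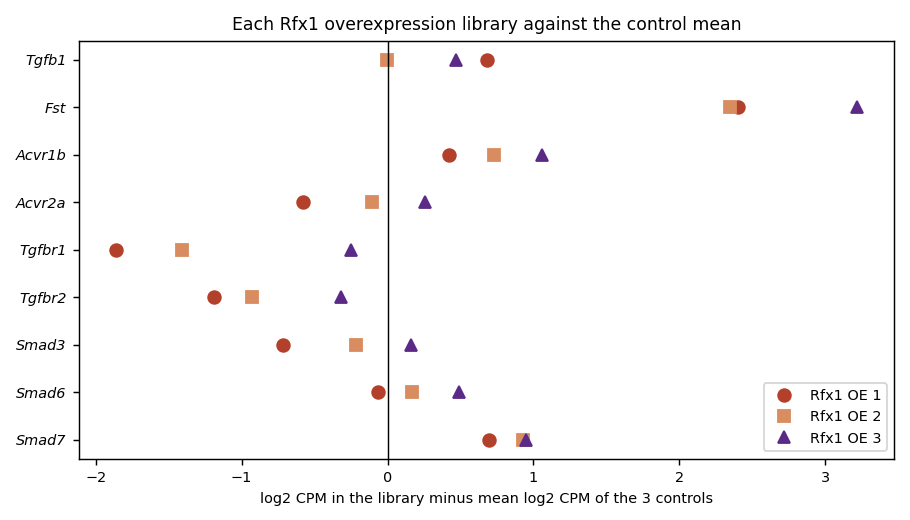
For 9 members (Inhba, at 7.30 to 8.55, lies off the scale and is left out) each symbol gives log2 CPM of 1 overexpression library minus the mean log2 CPM of the 3 controls. Overexpression 3 lies furthest right in 8 of the 9 genes, close to the control mean for Tgfbr1 and furthest from it for Fst.

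Overexpression 3 held the highest level of the 3 in 8 of the 10 members, all except Inhba and Tgfb1, where it held the highest level in 40.6% of all tested genes. The summed fibroblast markers were also highest in overexpression 3 among the overexpression libraries, and their part in these levels was not tested.

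Per kilobase of exon, Inhba stood first among the members with overexpression and ninth in controls. With overexpression the highest levels were Inhba at 147.9 CPM per kilobase, Tgfb1 at 39.97 and Tgfbr2 at 13.1. In controls Tgfb1 came first at 30.45 CPM per kilobase, followed by Tgfbr2 at 22.3 and Tgfbr1 at 13.9, while Inhba stood at 0.584 and Fst last at 0.156. With overexpression the libraries of Inhba, Tgfb1 and the next gene did not overlap, but from Tgfbr2 down to Smad7 each neighbour overlapped the next. In controls the only neighbours with overlapping libraries were Smad3 with Smad6 and Smad6 with Smad7. Levels per length use every annotated exon of a gene and so run low for genes with many unused exons.

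**Figure D4:**
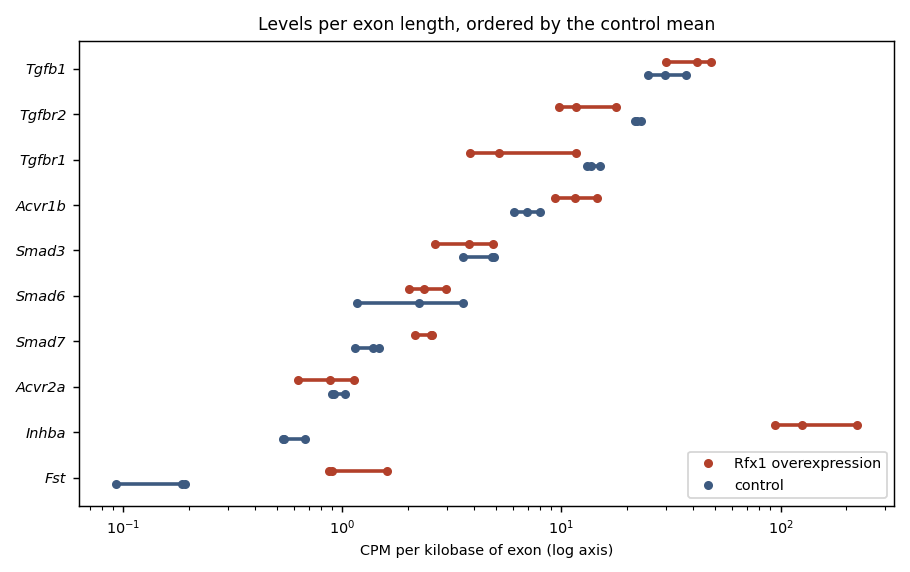
Points are the libraries, in CPM per kilobase of exon on a log axis, joined by a line for each group, with overexpression drawn above control for each gene and genes ordered by the control mean. Inhba has the widest gap, from 94.5 to 224 CPM per kilobase with overexpression and 0.538 to 0.673 in controls.

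Ratios within a library show how unequally the members differed. The ratio of Inhba to Fst per exon length was 139.8, 259.6 and 59.2 in overexpression libraries 1, 2 and 3 and 7.26, 2.92 and 2.83 in the controls. Activin subunit transcripts thus exceeded follistatin transcripts in every library, and by more in each overexpression library than in any control. The ratio of Tgfbr1 to Acvr1b, the TGF-beta and the activin type I receptor, was 0.409, 0.449 and 0.806 with overexpression and 1.89, 2.24 and 1.87 in controls. Smad3 to Smad7 was 1.24, 1.49 and 1.90 with overexpression and 3.36, 3.11 and 3.49 in controls. These pairs were chosen after the values were seen.

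Leaving out predicted and clone symbols, the 5 tested genes with profiles nearest to that of Inhba over the 6 libraries were Lcn2, Il17a, Hsd11b1, Bpifc and Cxcl3. Nearness was the root mean square difference of log2 CPM after each gene's mean was subtracted, which was 0.431 for Lcn2 and 0.704 for Cxcl3. Lcn2, the gene of an iron-siderophore binding protein, had 1284, 1077 and 504 CPM with overexpression and 4.77, 2.40 and 4.42 CPM in controls. In Il17a and Bpifc the controls held 1 count and 0 counts in all, and Hsd11b1 had 6, 0 and 1 counts in controls 1, 2 and 3. The profiles of Il17a, Bpifc and Hsd11b1 therefore rest on the prior count of 2 used for the log scale.

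Beyond the members, 115 further genes of the activin, TGF-beta and BMP pathways from lists by role had a row in the table, and 81 of them could be tested. The fit called 14 of these, 9 higher and 5 lower, or 17.3%, beside the 12.9% of all genes. Their median log2 difference was -0.23. None of the 3 further type I receptors, 2 type II receptors, 5 co-receptors or 5 SMADs tested was called. With overexpression 1 and 2 only, 12 were higher and 19 lower, in a fit that called 24.7% of all genes. With overexpression 3 alone 8 were higher and 0 lower, in a fit that called 2.37% of all genes. In that last fit Gdf3 (adjusted p = 0.082), Tgfb3 (adjusted p = 0.18), Acta2 (adjusted p = 0.16), Tgfbi (adjusted p = 0.14) and Cdkn1a (adjusted p = 0.059) were among the genes, described below, that did not pass. Adjusted p-values here and below come from the edgeR fit and are adjusted over all genes it tested, by the Benjamini-Hochberg method.

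Of 9 further ligand genes tested, 3 were lower and none higher, so that 33.3% were called beside 12.9% of all genes, 5.97% as lower. This list, too, was chosen with earlier results known, so nothing is read from the share. Tgfb3, which encodes TGF-beta 3, had 1.09, 1.59 and 3.60 CPM with overexpression and 6.42, 11.9 and 12.5 CPM in controls (log2 difference -2.28 ± 0.47 SE, adjusted p = 0.013). It lost its call without overexpression 2 (adjusted p = 0.078) or control 2 (adjusted p = 0.068). Gdf3, a ligand gene of the same superfamily, averaged 7.51 ± 3.35 with overexpression and 37.2 ± 12.2 CPM in controls (log2 difference -2.31 ± 0.36 SE, adjusted p = 0.0035). Inhbb, the gene of the activin B subunit, had 0, 6 and 3 counts with overexpression and 50, 21 and 21 counts in controls (adjusted p = 0.038). Inhbb therefore ran opposite to Inhba, but its call was lost without any single library except overexpression 3 (adjusted p = 0.071 to 0.11) and with the replicate number as a block (adjusted p = 0.060). Per exon length, the ratio of Inhba to Inhbb was 2808 and 2270 in overexpression 2 and 3 (Inhbb had no count in overexpression 1) and 1.21 to 2.06 in controls.

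Among the antagonist genes, Fstl3, a follistatin relative that also binds activin, averaged 0.919 ± 0.943 with overexpression and 0.704 ± 0.355 CPM in controls (adjusted p = 0.78). Of 12 genes of the latent TGF-beta complex and its opening, 1 was called, or 8.33% beside 12.9% of all genes. This was Thbs1, whose product thrombospondin 1 can activate latent TGF-beta. It had 1525, 2902 and 841 CPM with overexpression and 178, 128 and 114 CPM in controls (log2 difference 3.65 ± 0.46 SE, adjusted p = 0.0015). Nrros, which anchors latent TGF-beta 1 on myeloid cells, averaged 136 ± 4.69 with overexpression and 209 ± 28.1 CPM in controls, without overlap (adjusted p = 0.074).

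Of 19 SMAD regulators tested, 3 were higher, none was lower and 16 did not pass, so that 15.8% were called beside 12.9% of all genes. Pmepa1, an inhibitor of SMAD signalling that the pathway itself induces, had 12.5, 9.23 and 20.7 CPM with overexpression and 3.02, 2.66 and 2.24 CPM in controls (log2 difference 2.41 ± 0.36 SE, adjusted p = 0.0029). Tgif1, a SMAD corepressor gene, averaged 108 ± 14.6 with overexpression and 38.7 ± 4.56 CPM in controls (1.48 ± 0.21 SE, adjusted p = 0.0024). Skil, which encodes the corepressor SnoN, averaged 88.2 ± 26.7 with overexpression and 32.9 ± 12.2 CPM in controls (1.42 ± 0.32 SE, adjusted p = 0.017). Skil lost its call without overexpression 2, control 2 or control 3 (adjusted p = 0.070, 0.088 and 0.073) and when libraries were scaled by size alone (adjusted p = 0.066). The named SMAD, Smad4, the shared partner of the signalling SMADs, averaged 42.4 ± 5.71 with overexpression and 47.1 ± 2.47 CPM in controls (adjusted p = 0.66). The co-receptor gene Eng, which encodes endoglin, averaged 50.7 ± 11.6 with overexpression and 23.7 ± 17.5 CPM in controls (adjusted p = 0.15, and 0.0032 without control 1).

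Of 18 genes known as SMAD targets in several cell types, 4 were higher, 2 lower and 12 did not pass, so that 33.3% were called beside 12.9% of all genes. The list was chosen with earlier results known, so nothing is read from this share. Timp1, an inhibitor of matrix proteases, had 188, 163 and 306 CPM with overexpression and 10.5, 15.5 and 12.1 CPM in controls (log2 difference 4.11 ± 0.32 SE, adjusted p = 1.5e-04). Tgfbi, an extracellular matrix protein gene, averaged 365 ± 153.5 with overexpression and 39.5 ± 27.2 CPM in controls (3.21 ± 0.59 SE, adjusted p = 0.0092). Cdkn1a, the cell cycle inhibitor p21, averaged 302 ± 138 with overexpression and 69.4 ± 5.91 CPM in controls (2.12 ± 0.35 SE, adjusted p = 0.0049), with 348, 411 and 147 CPM in overexpression 1, 2 and 3.

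The 2 targets that fell are genes of contractile cells. Acta2, smooth muscle actin, had 4.79, 3.97 and 1.36 CPM with overexpression and 24.1, 109 and 101 CPM in controls (log2 difference -4.54 ± 0.67 SE, adjusted p = 0.0042). Tagln, transgelin, had 3, 0 and 2 counts with overexpression and 18, 13 and 19 counts in controls (adjusted p = 0.047, and 0.052 to 0.16 when any library was left out). Acta2 and Tgfb3 were lowest in control 1 among the controls, as was the summed level of the mesothelial markers, while Tagln was lowest in control 2. Among the overexpression libraries, Tgfb3 and the mesothelial sum were highest in overexpression 3, where Acta2 was lowest. The part of the mesothelial markers in these results was not tested.

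**Figure D5:**
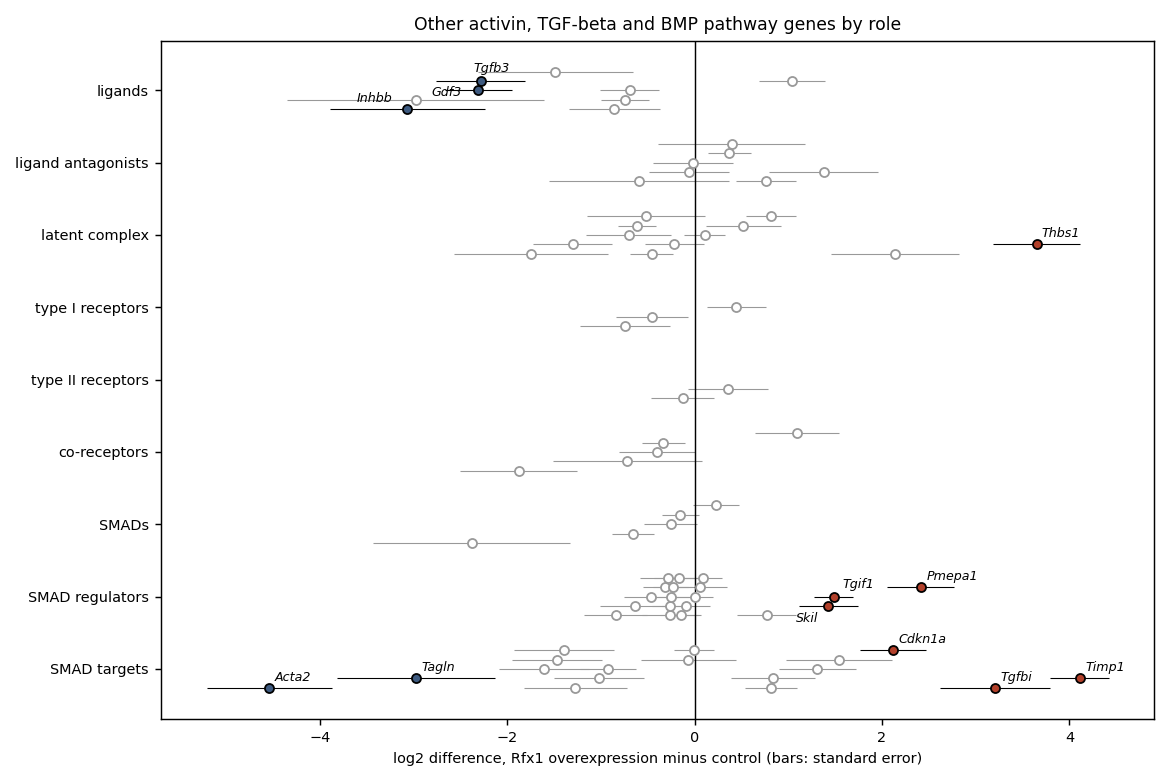
Each point is 1 further pathway gene that was tested, by role on the y axis and by log2 difference (overexpression minus control) on the x axis, with its standard error. Filled and named points are the genes described above that passed at an adjusted p under 0.05, with Timp1 furthest to the right of them and Acta2 furthest to the left, and the receptor, co-receptor and SMAD rows hold none. Genes that passed and are not described are not drawn.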

How the data were processed

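The authors deposited a table of raw read counts per Ensembl gene for 6 libraries, made with a stranded mRNA kit per the labels' protocols. Per the submitters' processing notes, tools included DESeq2 1.20.0 and featureCounts 1.5.0-p3 on mm10. For the aligner, annotation release and strand option, the value is not given in the sources used here. Symbols, coordinates and exon lengths came from GENCODE M21 (mm10), which matched 54495 identifiers and left 37 unmatched, and promoter sequences from RefSeq (GRCm38.p6).

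Group differences were tested on the deposited counts with edgeR 4.0.16 in R 4.3.3 (TMM scaling, genes of low count removed by filterByExpr, quasi-likelihood F-test with robust fitting, and group as the single term) with Benjamini-Hochberg adjustment over 13454 genes at 0.05. Standard errors are the log2 difference divided by the square root of F. Log2 CPM used a prior count of 2. Counting intervals cover counting error only. Pairs of libraries within a group correlated at 0.9306 to 0.9776 and differed by more than sampling noise (chi-square per degree of freedom at least 40.96). Pairs between groups correlated at 0.837 to 0.932, the highest being overexpression 3 with control 1, above the 0.9306 of overexpression 1 with overexpression 3.

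Named genes were the members, Rfx1, every further list gene that passed, and the most abundant gene per length of lists with none called. The 5 nearest profiles to Inhba, with predicted and clone symbols left out, were also named. Others were chosen after their values were seen. Some genes that passed are not reported here. The members and lists were chosen with earlier results of these data known. The fits were checked on simulated counts in which no library departed from its group. That check therefore does not cover the split among the overexpression libraries. Alternatives were RLE, upper-quartile and library-size scaling, DESeq2 1.42.0, limma-voom (limma 3.58.1), a block for replicate number, no filter on low counts, and leaving out libraries.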

Additional observations from a re-analysis of the deposited data

How the results depend on the processing

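Over the alternatives the log2 difference ran from 7.34 to 8.34 for Inhba and from 2.22 to 3.36 for Fst, given as a description since these values chose the members. Member calls in this section are a description for the same reason. No member passed as lower in the main edgeR fit. With all 6 libraries, 2 did, Tgfbr1 and Tgfbr2, in DESeq2 (19.1% of genes called) and without a filter on low counts (12.3%). The same 2 passed as lower without overexpression 3, and without control 1 and overexpression 3 together. DESeq2 called 4 members higher. Leaving out single libraries gave 2 to 3 higher and 0 to 2 lower members, 8 to 12 higher and 2 to 19 lower further pathway genes, and 454 to 1657 higher and 250 to 1800 lower genes in all. In the main edgeR fit those numbers were 2, 0, 9, 5, 928 and 803. Further pathway genes numbered 15 higher and 12 lower with DESeq2 (19.1% of all genes called) and 16 and 18 without a filter (12.3%). Without the pair of control 1 and overexpression 3 they numbered 15 and 29 (28.8%). Those fits tested 13452, 23737 and 13698 genes, so their counts cannot be compared directly. With libraries scaled by size alone, 8 were lower, beside 910 of all genes, a choice that put the all-gene median at -0.20. Of all genes, 1457 were higher and 1460 lower without a filter, 1922 and 2022 without that pair, 261 and 87 with overexpression 3 alone, and 1207 lower with DESeq2.

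Directions turned only in members with small differences and in Rfx1. Acvr2a ran from -0.33 to 0.10 over single libraries left out and was 0.26 with overexpression 3 alone, where Smad3 was 0.15. Smad6 ran from -0.24 to 0.52, was -0.082 with size alone and -0.39 without the pair. Rfx1 ran from -0.10 to 1.37, was 1.59 without the pair and -0.25 with overexpression 3 alone. With the replicate number as a block, 957 genes were higher and 945 lower, with 2 and 0 members and 12 and 7 further pathway genes. Same-numbered libraries deviated from their group means with correlations of 0.0941, 0.00531 and 0.327, and differently numbered ones with -0.232 to 0.19. These values do not settle whether the numbers are pairs, and the main fit did not take them as pairs. The causes of these changes were not tested. Fst in controls rests on 9 to 16 counts a library, which limits its precision.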
